A study of Mus musculus with 16 samples.

Results

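Serpins are a family of proteins that fold alike and mostly inhibit proteases. An inhibitory serpin offers its exposed loop as bait, the protease cuts it, and the serpin changes shape and traps the enzyme in a dead complex. Secreted members restrain clotting, plasminogen activation and complement, the intracellular clade b members protect cells from proteases such as granzyme B and cathepsin G, and a few members, among them the collagen chaperone Serpinh1, inhibit no protease. Mice carry enlarged clusters of clade a and clade b genes, and the Serpinb9 cluster is known for members made in the placenta.

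The family was taken as every gene symbol of the expression table that begins with Serpin, a letter from a to i and a digit, without hyphenated names. That gave 63 of 31663 symbols, and 5 hyphenated Serpin names were left out. The members came from their symbols and not from their levels, but they were chosen with earlier results of these data known.

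RNA was measured in 16 mouse libraries made by the Smart-seq2 method, 2 for each of 8 groups. Induced pluripotent stem cells (iPSC, labelled iPS when cultured alone), which carry GFP, and cells that the labels call TSC or TSCC, trophectoderm stem cells, which carry RFP, were grown apart or mixed. Mixed cells formed structures, labelled ITS, in which a green part of iPSC and a red part of TSC were told apart by fluorescence and parted by hand. Lone iPSC, lone TSC and either part of the assembled structures, each untreated or with BMP4 in the last 24 hours, made up the 8 groups. The 8 groups shared 5% Matrigel, serum-containing ITSC medium, FGF4 at 12.5 ng/ml, heparin at 500 ng/ml and collection on day 3, and the dose of BMP4 is not given in the sources used here. Each library came from 1 picked colony or structure part, and the growth protocol also names mouse embryonic stem cells without saying where they were used. Whether the 2 libraries of a group stem from separate cultures is not said in the labels, and p-values therefore measure the spread between these libraries, which may be technical.

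Pou5f1, a core pluripotency factor, stood at 49.5 to 326 FPKM (fragments scaled to transcript length and mapped total) in the 8 libraries of iPSC origin and at 0.0335 to 13.2 FPKM in the 8 of TSC origin. In untreated TSC cultured alone the genes that mark trophoblast stem cells went both ways. Among the low ones, Eomes stood at 0.219 and 0.0844 FPKM, Cdx2 at 0 and 3.89 FPKM, and Elf5 at 5.51 and 11.6 FPKM, against 116 and 159 FPKM of Elf5 in the untreated assembled TSC part. Gata3 (47.0 and 34.3 FPKM), Tfap2c (140.5 and 99.4 FPKM) and the keratins Krt7, Krt8 and Krt18 were higher in these 2 libraries than in the other 14, and so was the sum over the 12 genes of that list, at 6368 and 3724 FPKM against 532 to 1824 FPKM in the other 6 libraries of TSC origin. Krt8 (2931.5 and 1366.7 FPKM) and Krt18 (2947.1 and 1705.3 FPKM) gave most of the sums of these 2 libraries. The same 2 libraries held the most RNA of a list of 12 differentiated trophoblast genes, with sums of 7568 and 5060 FPKM against 162 to 1803 FPKM in the other 6 libraries of TSC origin. Phlda2 alone gave 6773 and 4649.8 FPKM of these sums, and Tpbpa and Prl3d1 of the list were at 0 in all 16 libraries. A pair of libraries, called mixed-marker libraries below, exceeded their partners in several genes of the other lineage. Replicate 2 of the BMP4-treated assembled iPSC part had Elf5 at 50.4 FPKM against 0.193 FPKM in replicate 1. Hand1 stood at 149 against 10.4 FPKM there and Esx1 at 21.8 against 0.140 FPKM. Replicate 2 of the untreated assembled TSC part had Pou5f1 at 13.2 FPKM against 2.33 FPKM. Dppa5a stood at 499 against 8.73 FPKM there and Tdgf1 at 22.5 against 0.261 FPKM. The other markers did not all follow. In the first of these libraries Gata3, at 6.02 against 12.5 FPKM, and Cdx2, Tfap2c and Krt8 were lower than in its partner. The trophoblast stem sums were 624 and 549 FPKM. In the second Utf1 was lower, at 542 against 724 FPKM. Replicate 2 of iPSC alone with BMP4 (trophoblast stem sum 818 against 336 FPKM) and replicate 2 of the assembled TSC part with BMP4 (sum of 10 pluripotency genes 689 against 224 FPKM) also exceeded their partners. Summed levels of 16 endoderm genes stayed between 7.29 and 20.3 FPKM and those of 11 fibroblast genes between 0.492 and 6.67 FPKM in every library. In such bulk libraries fewer cells of a type and less RNA per cell cannot be told apart.

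Of the 63 members, 18 reached 1 FPKM in at least 2 libraries and were tested. Clade b gave 11 of these from 27 members and clade a gave 1 from 25, and the rest came from the smaller clades e to i. Clade a, which holds the liver-made antitrypsin and antichymotrypsin genes, was therefore nearly silent apart from Serpina3m. Of the 45 members not tested, 10 were listed at 0 in every library, 33 stayed under 1 FPKM in every library, and 2 reached 1 FPKM in a single library. These 2 were Serpinb9g, with 4.33 FPKM in replicate 1 of untreated TSC alone, and Serpinb5 (maspin), with 1.21 FPKM in replicate 2 of that group. Both are named here because their values were seen. Serpinb9d, Serpinb9e and Serpinb9f passed this filter only through libraries of TSC cultured alone, and Serpinb1b only through the BMP4-treated assembled TSC part. Serpinb9c reached 1 FPKM in 3 libraries, 2 of them of untreated TSC alone. Serpinb1a reached it in 6, all of TSC that were assembled or had BMP4. Serpini1, Serpina3m and Serpinf1 reached it in 8, 7 and 6 libraries, all of iPSC origin. The differences that these members show in those groups, and the number of members that differ there, are therefore partly set by the filter.

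**Figure D1:**
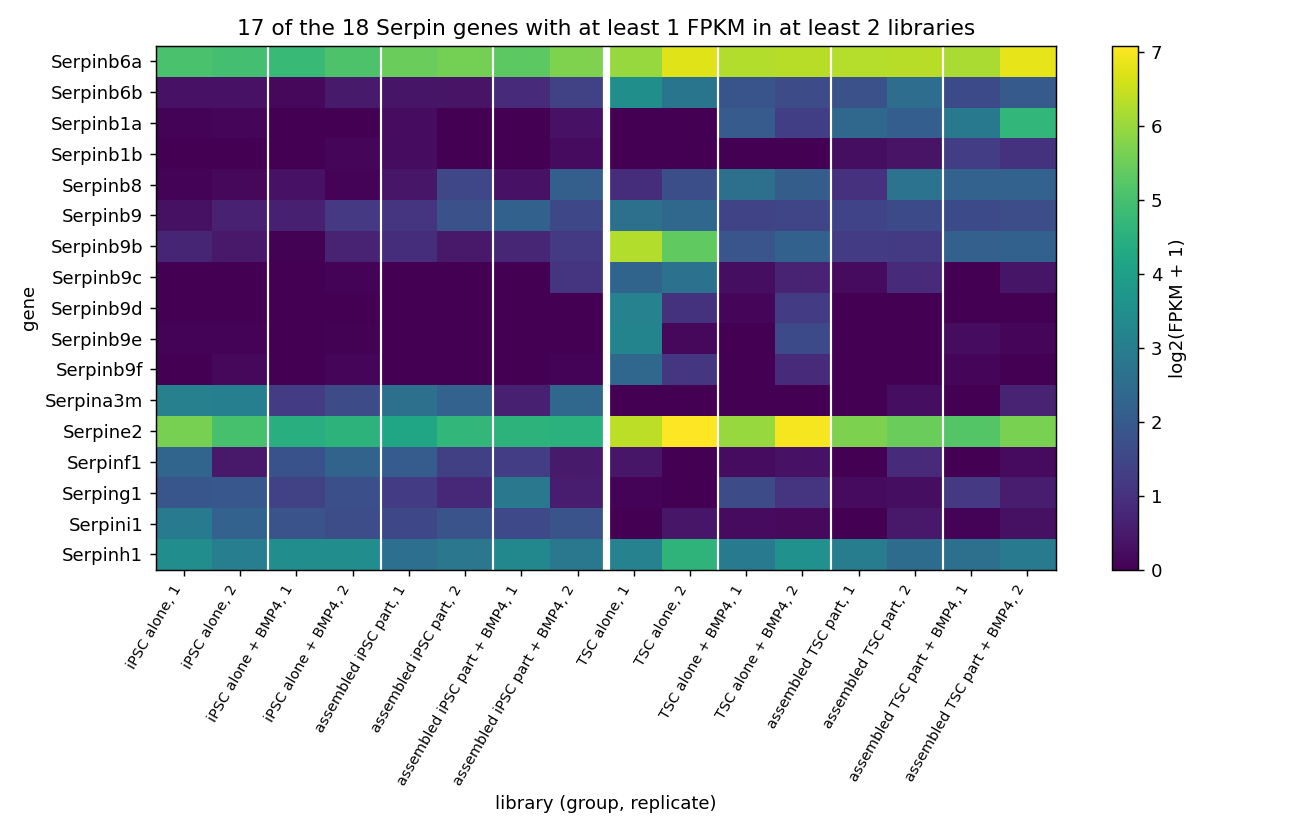
Heat map of 17 of the 18 Serpin genes tested (rows) in the 16 libraries (columns, 2 per group, iPSC origin left and TSC origin right of the thick line), with colour giving log2(FPKM + 1). Serpinb6a and Serpine2 are bright in every column, and the Serpinb9b row is bright in the 2 untreated libraries of TSC alone.

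Summed over the 63 members, Serpin RNA came to 66.9 to 113 FPKM in the 8 libraries of iPSC origin and to 135 to 326 FPKM in the 8 of TSC origin, without overlap. Serpinb6a and Serpine2 together made up 52.3% to 86.8% of that sum. The lowest share was that of replicate 1 of untreated TSC alone, where the 6 genes from Serpinb9b to Serpinb9g took 37.9% of the sum. Those 6 genes added up to 105 and 47.6 FPKM in the untreated libraries of TSC alone and to at most 9.30 FPKM in any other library.

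The Serpinb9 group holds the member with the largest differences between the groups of TSC, Serpinb9b, so its sequences are shown first. Serpinb9, the mouse inhibitor of granzyme B, lies on chromosome 13 in a row of 15 Serpin members in which Serpinb9, Serpinb9b, Serpinb1b, Serpinb9c, Serpinb9d, Serpinb9e, Serpinb9f and Serpinb9g follow each other. The 250 bases before the transcription start were read from RefSeq on GRCm38, where 53 of the 63 members and 14 of the 18 tested had an entry. They are given 5′ to 3′ on the gene's strand: Serpinb9b at chr13:33027164-33027413 (plus strand), Serpinb9c at chr13:33159755-33160004 (minus strand), Serpinb9d at chr13:33192705-33192954 (plus), Serpinb9e at chr13:33249358-33249607 (plus) and Serpinb9f at chr13:33323827-33324076 (plus). Capitals mark TGACGT, the letters of a cyclic AMP response element half-site, searched on both strands.
Serpinb9b: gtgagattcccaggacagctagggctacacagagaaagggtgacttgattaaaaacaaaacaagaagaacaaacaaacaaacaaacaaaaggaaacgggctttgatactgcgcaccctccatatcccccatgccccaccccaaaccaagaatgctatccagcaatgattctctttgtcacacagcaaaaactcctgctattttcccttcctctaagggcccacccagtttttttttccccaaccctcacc
Serpinb9c: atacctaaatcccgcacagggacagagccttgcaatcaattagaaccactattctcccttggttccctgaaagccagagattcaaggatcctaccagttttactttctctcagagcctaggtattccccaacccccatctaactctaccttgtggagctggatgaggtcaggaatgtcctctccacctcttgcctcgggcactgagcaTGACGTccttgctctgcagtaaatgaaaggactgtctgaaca
Serpinb9d: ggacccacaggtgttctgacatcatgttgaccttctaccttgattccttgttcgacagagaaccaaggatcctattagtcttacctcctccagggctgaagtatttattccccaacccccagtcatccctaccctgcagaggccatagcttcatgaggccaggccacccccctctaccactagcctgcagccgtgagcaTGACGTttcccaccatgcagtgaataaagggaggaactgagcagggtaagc
Serpinb9e: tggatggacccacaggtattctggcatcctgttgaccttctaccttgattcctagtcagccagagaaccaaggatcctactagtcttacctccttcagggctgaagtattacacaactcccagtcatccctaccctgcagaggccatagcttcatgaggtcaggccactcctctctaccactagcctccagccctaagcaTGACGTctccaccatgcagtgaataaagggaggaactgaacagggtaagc
Serpinb9f: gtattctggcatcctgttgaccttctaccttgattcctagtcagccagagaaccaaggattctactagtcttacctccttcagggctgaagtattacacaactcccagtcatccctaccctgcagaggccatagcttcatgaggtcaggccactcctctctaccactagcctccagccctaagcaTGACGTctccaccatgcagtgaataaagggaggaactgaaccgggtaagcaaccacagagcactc

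The windows of Serpinb9d, Serpinb9e and Serpinb9f were near-copies. Serpinb9e and Serpinb9f shared 93.2% of the 250 bases, Serpinb9d and Serpinb9e 90.0%, and Serpinb9d and Serpinb9f 85.2%. The window shown for Serpinb9c, which has a second listed start, matched these 3 at 62.4% to 66.8%. Serpinb9b stood apart, with 38.0% to 42.8% against the same 3 and 54.4% against Serpinb9. The TGACGT letters were present in the windows of Serpinb9c, Serpinb9d, Serpinb9e and Serpinb9f and not in those of Serpinb9 and Serpinb9b, against 6.5% of 32851 RefSeq windows of this length. The other listed window of Serpinb9c also lacked them. This motif was picked after the sequences were read, and the genes share ancestry, so the match describes the letters and no binding. The other motifs searched on both strands were TATAAA (in 12.4% of windows), the GATA motif AGATAA (10.0%), the TFAP2 motif GCCNNNGGC (13.7%) and the ETS motif CAGGAAG (10.8%). In the 5 windows shown they gave 1 match, of the TFAP2 motif in Serpinb9c.

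The likeness of these genes also bears on their levels. In the longest GENCODE transcripts, 78.7% of the 50-base stretches of Serpinb9f also occurred in another gene and 63.9% in the predicted gene Gm11397. The share found in another gene was 30.8% for Serpinb9d, 28.4% for Serpinb9e and 18.9% for Serpinb9c. Serpinb9 and Serpinb9b shared 0.4% and 0.5%. The sources used here do not say how reads that fit several genes were treated, which makes the separate levels of Serpinb9c, Serpinb9d, Serpinb9e and Serpinb9f uncertain and hardly touches those of Serpinb9 and Serpinb9b.

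Serpinb9b RNA was high in untreated TSC cultured alone and low everywhere else. It stood at 76.5 and 39.9 FPKM there, a mean of 58.2 ± 25.9 FPKM (SD, n = 2), against 0.665 and 0.394 FPKM in iPSC alone. With BMP4 the TSC alone held 2.65 and 3.59 FPKM. The untreated assembled TSC part held 1.35 and 1.29 FPKM and the BMP4-treated one 3.48 and 3.59 FPKM. The 8 libraries of iPSC origin ran from 0.0290 to 1.29 FPKM, with the highest in replicate 2 of the BMP4-treated assembled iPSC part, the library with Elf5 at 50.4 FPKM. The lowest library of TSC origin, at 1.29 FPKM as well, lay just above it.

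Differences are given from limma on log2(FPKM + 1), a scale that understates the change of low genes, with Benjamini-Hochberg adjustment over the 13406 genes tested and a threshold of 0.05. Serpinb9b was higher in TSC than in iPSC, both alone and untreated, by 5.21 ± 0.35 (SE, limma adjusted p = 4.67e-06). It was lower in the assembled TSC part than in TSC alone by a log2 difference of -4.60 ± 0.35 (limma adjusted p = 3.76e-05) and lower in TSC alone with BMP4 than without, at -3.78 ± 0.35 (limma adjusted p = 7.47e-05). These 3 comparisons share the same 2 untreated libraries of TSC alone. Between the untreated assembled parts, which do not use those libraries, the TSC part exceeded the iPSC part by 0.50 ± 0.35 (limma adjusted p = 0.371), which did not pass. BMP4 in the assembled TSC part gave a difference of 0.97 ± 0.35 (limma adjusted p = 0.369), which did not pass either.

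The rest of the group had the same high point at lower levels. Serpinb9c stood at 3.87 and 5.32 FPKM in untreated TSC alone and at 0 to 1.08 FPKM in the other 14 libraries, so the groups did not overlap. The value of 1.08 FPKM was again that of replicate 2 of the BMP4-treated assembled iPSC part. Serpinb9c would not have passed the filter without the untreated libraries of TSC alone, so the differences that follow are no independent test. Its log2 difference was 2.47 ± 0.35 between TSC and iPSC alone (limma adjusted p = 0.000194), -1.94 ± 0.35 on assembly (limma adjusted p = 0.00303) and -1.99 ± 0.35 with BMP4 in TSC alone (limma adjusted p = 0.00389). The last 2 were no longer called with a pseudocount of 0.1 in place of 1 (limma adjusted p = 0.0629 and 0.0797).

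Serpinb9d, Serpinb9e and Serpinb9f differed greatly between the 2 libraries of untreated TSC alone. Serpinb9d stood at 7.90 and 1.05 FPKM, Serpinb9e at 8.16 and 0.121 FPKM, and Serpinb9f at 4.25 and 1.18 FPKM, with replicate 1 the higher each time, as it was for Serpinb9g. In TSC alone with BMP4 they stood at 0.0836 and 1.36, 0 and 1.99, and 0 and 0.832 FPKM, and Serpinb9d was at 0 in the 8 assembled libraries. The filter admitted Serpinb9f through the 2 untreated libraries of TSC alone and Serpinb9d through these and 1 with BMP4, so the differences that follow describe how far they stood out and are no independent test. Serpinb9d and Serpinb9f were higher in TSC than in iPSC alone, by 2.10 ± 0.51 (limma adjusted p = 0.00688) and 1.68 ± 0.37 (limma adjusted p = 0.00333). Without replicate 1 of TSC alone the Serpinb9d difference was 1.04 (limma adjusted p = 0.0492) and without replicate 2 it was 3.15 (limma adjusted p = 0.000207). Serpinb9e passed no test, with 1.60 ± 0.71 in the lineage comparison (limma adjusted p = 0.094), and is named here because its values were seen. Without replicate 2 of untreated TSC alone that difference was 3.12 (limma adjusted p = 0.000744).

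On assembly, Serpinb9f fell by 1.76 ± 0.37 on the log2 scale (limma adjusted p = 0.00669) and Serpinb9d by 2.10 ± 0.51 (limma adjusted p = 0.0145). The Serpinb9d call was lost without replicate 1 of TSC alone (-1.04, limma adjusted p = 0.0769), without either replicate of the untreated assembled TSC part (limma adjusted p = 0.0747 and 0.0661), and without the pair of mixed-marker libraries (limma adjusted p = 0.0751). With BMP4 in TSC alone Serpinb9f fell by 1.32 ± 0.37 (limma adjusted p = 0.0344), a call lost without replicate 1 of TSC alone (-0.68, limma adjusted p = 0.204), without replicate 1 of TSC alone with BMP4 (-0.88, limma adjusted p = 0.259), or without replicate 1 of the untreated assembled iPSC part (limma adjusted p = 0.0501). It was also lost with a pseudocount of 0.1 (limma adjusted p = 0.0968), without the filter (limma adjusted p = 0.0607) and without the mixed-marker pair (limma adjusted p = 0.0534).

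Serpinb9 itself differed less than Serpinb9b between the groups of TSC, and its assembly calls in either lineage were lost under some alternatives. It stood at 5.15 and 4.19 FPKM in untreated TSC alone, at 0.254 and 0.563 FPKM in untreated iPSC alone, and at 1.69 to 2.18 FPKM in the 4 assembled TSC libraries. The assembled iPSC part had 1.11 and 2.37 FPKM without BMP4 and 3.58 and 1.92 FPKM with it, against 0.554 and 1.26 FPKM in iPSC alone with BMP4. TSC alone exceeded iPSC alone by 2.01 ± 0.32 (limma adjusted p = 0.000479). Over both BMP4 conditions, the assembled iPSC part exceeded iPSC alone by 0.95 ± 0.23 (limma adjusted p = 0.00976), with overlapping libraries, and in TSC the same difference was -0.42 ± 0.23 (limma adjusted p = 0.229), which did not pass. Without BMP4 the assembly difference was 0.93 ± 0.32 in iPSC (limma adjusted p = 0.0777), which did not pass, and -0.99 ± 0.32 in TSC (limma adjusted p = 0.0475). The call in iPSC was lost without replicate 2 of the untreated assembled iPSC part (0.78, limma adjusted p = 0.0503). The call in TSC was lost under 17 of 21 alternatives, among them the absence of any 1 library of iPSC alone, TSC alone or the assembled TSC part, with or without BMP4 (limma adjusted p from 0.0373 to 0.184 over the 21).

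**Figure D2:**
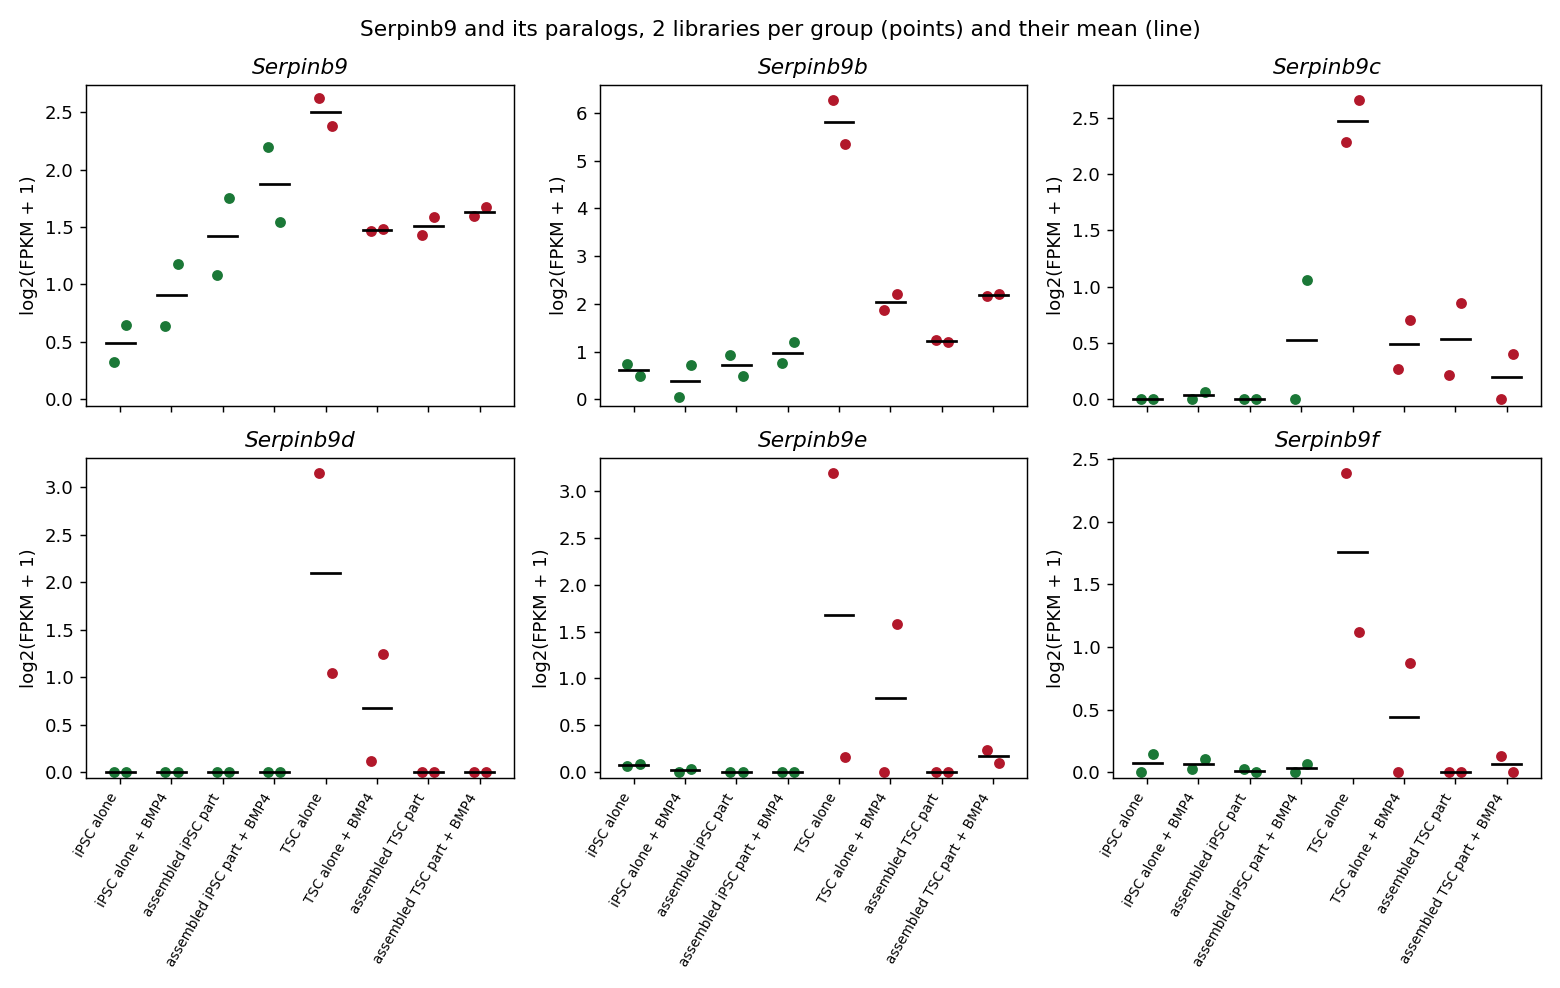
Levels of Serpinb9 and 5 paralogs as log2(FPKM + 1) by group, each point 1 library and each line the mean of 2, iPSC origin in green and TSC origin in red. The untreated libraries of TSC alone are the highest of Serpinb9b (76.5 and 39.9 FPKM) and Serpinb9c (3.87 and 5.32 FPKM), and those of Serpinb9d, Serpinb9e and Serpinb9f lie far apart.

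Markers moved with the Serpinb9 group. Plac1, a placental growth gene, stood at 745 and 293 FPKM in untreated TSC alone, 16.01 and 14.2 FPKM in TSC alone with BMP4 and 0.640 and 4.86 FPKM in the untreated assembled TSC part. Gata3, a trophoblast transcription factor, ran the same way, at 47.0 and 34.3, 14.0 and 17.7, and 11.01 and 13.5 FPKM in those 3 groups, as did the summed trophoblast stem list, at 6368 and 3724, 1629 and 1725, and 1824 and 1699.5 FPKM. Elf5 of that list ran the other way, at 5.51 and 11.6, 153 and 130, and 116 and 159 FPKM, and so did Eomes and Sox21. Krt8 and Krt18 gave most of the list's sums in untreated TSC alone. The summed differentiated trophoblast list was 7568 and 5060, 1803 and 1200, and 1274 and 666 FPKM in the same order, with at most 4 of its 12 genes at 1 FPKM in any of these libraries. The part of cell state in the Serpinb9 values was not tested.

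Serpinb6a, an intracellular inhibitor of cathepsin G and trypsin-like proteases, was, beside Serpine2, the most abundant member per length of transcript in every library other than replicate 1 of untreated TSC alone, where Serpinb9b exceeded it. It stood at 26.4 to 51.9 FPKM in the 8 libraries of iPSC origin and at 62.8 to 112 FPKM in the 8 of TSC origin, without overlap. Averaged over the 4 groups of each origin the difference was 1.12 ± 0.14 (limma adjusted p = 3.04e-05), and between the lone untreated cultures it was 1.36 ± 0.28 (limma adjusted p = 0.00225). In the assembled iPSC part it reached 43.1 and 47.6 FPKM without BMP4 and 38.8 and 51.9 FPKM with it, each above the 32.1, 30.2, 26.4 and 33.6 FPKM of iPSC alone. That difference of 0.55 ± 0.20 did not pass (limma adjusted p = 0.0541). It passed with quantile normalization (0.84, limma adjusted p = 0.00396), with a replicate block (limma adjusted p = 0.0322), without either replicate of untreated TSC alone (limma adjusted p = 0.0286 for each) and without either replicate of the assembled TSC part with BMP4 (limma adjusted p = 0.0445 and 0.0446).

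Serpinb6b, which lies in the same row of Serpin genes on chromosome 13, differed more sharply between lineages and at lower levels. It stood at 0.101 to 0.438 FPKM in iPSC alone with or without BMP4 and in the untreated assembled iPSC part, and reached 0.840 and 1.60 FPKM in the BMP4-treated assembled iPSC part. In untreated TSC alone it stood at 10.6 and 5.74 FPKM, in the other 6 libraries of TSC origin at 2.00 to 4.82 FPKM. No library of iPSC origin reached the lowest of TSC origin. The origin averages differed by 1.66 ± 0.18 (limma adjusted p = 9.13e-06), the lone cultures by 2.80 ± 0.35 (limma adjusted p = 9.69e-05) and the assembled parts by 1.76 ± 0.35 (limma adjusted p = 0.00496). With BMP4 Serpinb6b fell in TSC alone by 1.41 ± 0.35 (limma adjusted p = 0.0216), a call lost without replicate 1 of TSC alone (-1.02, limma adjusted p = 0.12) and without either replicate of TSC alone with BMP4 (limma adjusted p = 0.0732 and 0.0762). A pseudocount of 0.1 (limma adjusted p = 0.0829) and the absence of the filter (limma adjusted p = 0.051) also ended it.

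Serpinb1a, an inhibitor of neutrophil elastase and related proteases, was lowest in the group of TSC where Serpinb9b was highest. It was at 0 in both untreated libraries of TSC alone, at 3.12 and 1.48 FPKM with BMP4, at 4.31 and 3.30 FPKM in the untreated assembled TSC part and at 6.26 and 24.7 FPKM there with BMP4. The libraries of iPSC origin stood at 0 to 0.265 FPKM. Thus the 6 libraries of TSC that were assembled or had BMP4 were above the other 10. Serpinb1a reached 1 FPKM in these 6 alone, so the differences that follow describe groups through which it passed the filter. On assembly without BMP4 Serpinb1a rose in TSC by 2.26 ± 0.46 (limma adjusted p = 0.00572), and with BMP4 in TSC alone it rose by 1.68 ± 0.46 (limma adjusted p = 0.0318). The BMP4 call was lost without either replicate of untreated TSC alone (limma adjusted p = 0.09 and 0.0904), without replicate 1 of TSC alone with BMP4 (1.31, limma adjusted p = 0.207) or without the filter (limma adjusted p = 0.0768). Between the untreated assembled parts the difference was 2.14 ± 0.46 (limma adjusted p = 0.00715), which was lost without replicate 2 of the assembled iPSC part (limma adjusted p = 0.0576) or replicate 1 of the assembled TSC part (limma adjusted p = 0.0636).

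Serpinb1b, a paralog of Serpinb1a, stood above 1 FPKM where Serpinb1a was highest. It stood at 1.46 and 1.04 FPKM in the assembled TSC part with BMP4, at 0.201 and 0.289 FPKM in the untreated one and at 0 in the 4 libraries of TSC alone. Over both BMP4 conditions the assembled TSC part exceeded TSC alone by 0.74 ± 0.15 for Serpinb1b (limma adjusted p = 0.0073) and by 2.18 ± 0.32 for Serpinb1a (limma adjusted p = 0.00157). Serpinb1b was admitted by the filter only through the assembled TSC part with BMP4, so its difference is no independent test. It shared 3.5% of its 50-base stretches with other genes.

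Serpinb8, an intracellular inhibitor of furin, was higher in cells of TSC origin by 1.30 ± 0.31 over the 4 groups (limma adjusted p = 0.00352). Its libraries overlapped, at 0.911 to 5.49 FPKM in TSC origin and 0.0469 to 3.46 FPKM in iPSC origin. In 3 of the 4 assembled groups the replicates lay far apart: 0.343 and 1.82 FPKM, 0.277 and 3.46 FPKM in the iPSC part without and with BMP4, and 0.996 and 5.49 FPKM in the untreated TSC part. The TSC part with BMP4 held 3.66 and 3.68 FPKM.

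The secreted members described here split by lineage, with the plasminogen activator and thrombin inhibitor Serpine2 (protease nexin) high in TSC and Serpina3m, Serpini1, Serping1 and Serpinf1 high in iPSC. Serpine2 stood at 82.3 and 135 FPKM in untreated TSC alone and at 62.9 and 127 FPKM with BMP4, against 48.2 and 31.5 FPKM in untreated iPSC alone and 20.8 and 22.9 FPKM with BMP4. The assembled TSC part held 50.4 and 43.1 FPKM without BMP4 and 35.4 and 49.8 FPKM with it, below all 4 libraries of TSC alone. The assembled iPSC part held 17.5 to 24.9 FPKM. Averaged over groups, the lineages differed by 1.35 ± 0.18 (limma adjusted p = 4.68e-05).

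In iPSC the untreated assembly difference of Serpine2 was -0.87 ± 0.35 (limma adjusted p = 0.123), which did not pass, though the libraries did not overlap. Averaged over BMP4, the difference between the assembly effects in TSC and iPSC did not pass (-0.71 ± 0.35, limma adjusted p = 0.251). Over both BMP4 conditions Serpine2 fell with assembly in TSC by 1.12 ± 0.25 on the log2 scale (limma adjusted p = 0.0106). The same comparison without BMP4 gave -1.16 ± 0.35 (limma adjusted p = 0.0358), and did not pass without replicate 2 of TSC alone (-0.81, limma adjusted p = 0.205), without either replicate of the untreated assembled TSC part (limma adjusted p = 0.103 and 0.152) or without replicate 1 of iPSC alone with BMP4 (limma adjusted p = 0.0501). Nor did it pass without the filter (limma adjusted p = 0.0772) or without the mixed-marker pair (limma adjusted p = 0.163). TSC exceeded iPSC by 1.41 ± 0.35 when cultured alone and untreated (limma adjusted p = 0.00739), a call lost without replicate 2 of iPSC alone (limma adjusted p = 0.0809) or of TSC alone (limma adjusted p = 0.0688). In the assembled parts the difference was 1.12 ± 0.35 (limma adjusted p = 0.0446) and was lost under 11 of 21 alternatives, with adjusted p up to 0.241, among them the absence of any 1 library of iPSC alone with or without BMP4 or of either untreated assembled part.

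**Figure D3:**
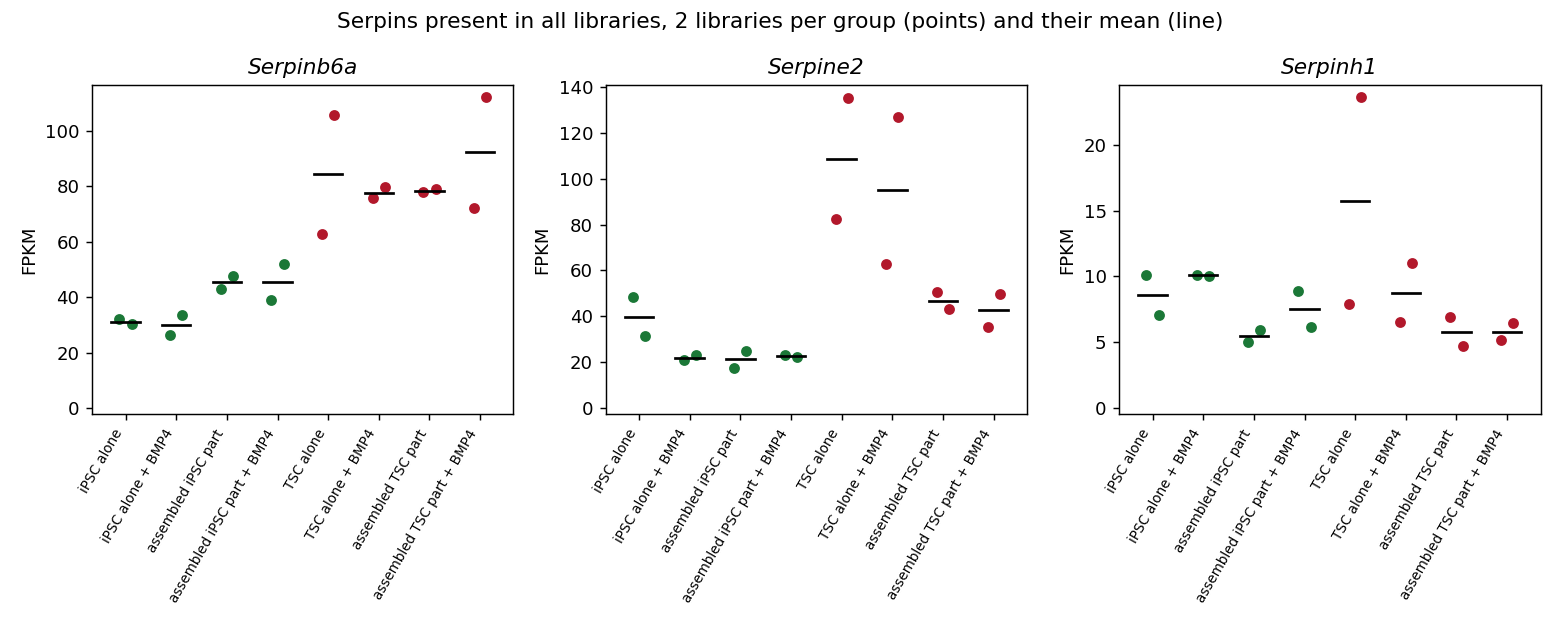
FPKM of Serpinb6a, Serpine2 and Serpinh1 by group on linear axes, each point 1 library and each line the mean of 2, iPSC origin in green and TSC origin in red. Serpinb6a is higher in every library of TSC origin, and Serpine2 is highest in TSC alone. Serpinh1 lies between 4.68 and 10.98 FPKM apart from 23.6 FPKM in 1 untreated library of TSC alone.

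Serpina3m, of the antichymotrypsin-like cluster on chromosome 12, was higher in cells of iPSC origin. It stood at 7.48 and 7.38 FPKM in untreated iPSC alone, at 1.35 and 2.07 FPKM with BMP4, and at 0 in the 4 libraries of TSC alone. The assembled iPSC part held 5.10 and 3.64 FPKM without BMP4 and 0.539 and 4.22 FPKM with it. The assembled TSC part held 0 and 0.211 FPKM and, with BMP4, 0 and 0.643 FPKM, the last of which lay above the lowest of iPSC origin. Serpina3m reached 1 FPKM only in libraries of iPSC origin, so the lineage differences that follow are no independent test. TSC was lower than iPSC alone by a log2 difference of -3.08 ± 0.45 (limma adjusted p = 0.000271) and the assembled TSC part lower than the assembled iPSC part by -2.27 ± 0.45 (limma adjusted p = 0.00496).

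Serpina3m levels in iPSC alone did not overlap between BMP4 and none. The log2 difference with BMP4 was -1.65 ± 0.45 in iPSC alone (limma adjusted p = 0.372) and -1.28 ± 0.32 over iPSC alone and assembled (limma adjusted p = 0.162), and neither passed. Without replicate 2 of the BMP4-treated assembled iPSC part, the library with Elf5 at 50.4 FPKM, the second was -1.72 (limma adjusted p = 0.00494), and the first passed narrowly without either replicate of that group (limma adjusted p = 0.0495 and 0.0478). Of its 50-base stretches, 19.1% occur in another gene, most of them in Serpina3k.

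Serpini1 (neuroserpin, an inhibitor of tissue plasminogen activator) stood at 1.90 to 6.46 FPKM in the 8 libraries of iPSC origin and at 0 to 0.405 FPKM in the 8 of TSC origin, without overlap. The highest were the untreated libraries of iPSC alone, 6.46 and 3.65 FPKM. Serpini1 reached 1 FPKM only in libraries of iPSC origin, so the differences that follow are no independent test. The lineage difference was -1.71 ± 0.15 over the groups (limma adjusted p = 2.15e-06), -2.34 ± 0.30 between lone cultures (limma adjusted p = 0.00011) and -1.42 ± 0.30 between assembled parts (limma adjusted p = 0.00696). The last was lost without replicate 2 of the assembled iPSC part (limma adjusted p = 0.0645) or replicate 1 of the assembled TSC part (limma adjusted p = 0.0752).

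**Figure D4:**
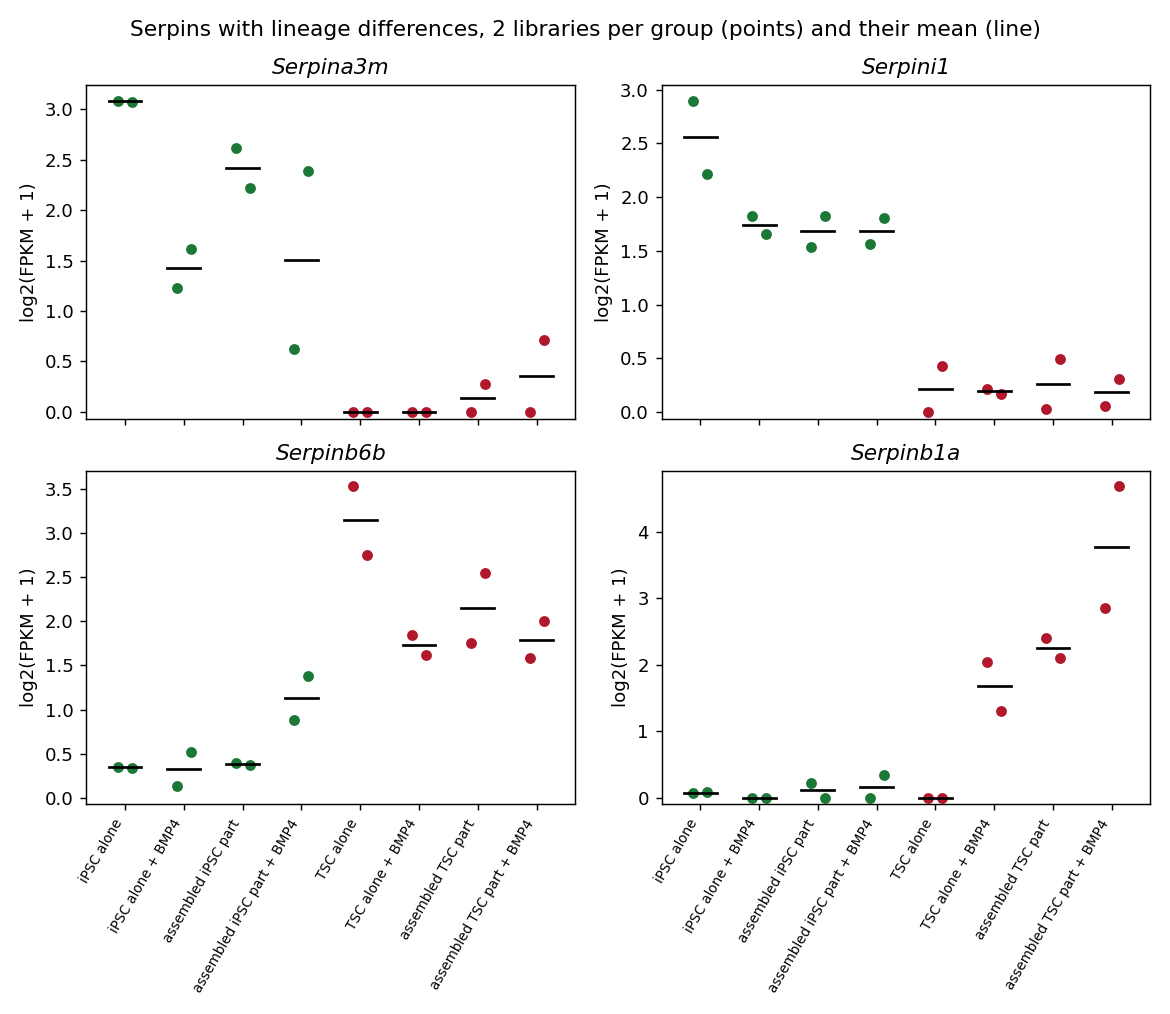
Levels of Serpina3m, Serpini1, Serpinb6b and Serpinb1a as log2(FPKM + 1) by group, each point 1 library and each line the mean of 2, iPSC origin in green and TSC origin in red. Serpini1 and Serpinb6b separate the lineages without overlap, and Serpinb1a is at 0 in untreated TSC alone and up to 24.7 FPKM in the assembled TSC part with BMP4.

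Serping1, the complement C1 inhibitor, stood at 2.74 and 2.83 FPKM in untreated iPSC alone and at 0.0488 and 0 FPKM in untreated TSC alone. That difference of -1.89 ± 0.54 (limma adjusted p = 0.0153) was lost without any 1 of these 4 libraries (limma adjusted p from 0.0509 to 0.0714). In TSC alone with BMP4 it stood at 2.13 and 1.15 FPKM, above both untreated libraries, and the difference of 1.34 ± 0.54 did not pass (limma adjusted p = 0.124). It passed without either replicate of the BMP4-treated assembled iPSC part (limma adjusted p = 0.0133 and 0.014) and with a pseudocount of 0.1 (3.77, limma adjusted p = 0.0191). Its highest value was 6.21 FPKM in replicate 1 of the BMP4-treated assembled iPSC part, where replicate 2 held 0.484 FPKM. Over the averaged origins Serping1 was lower in TSC origin by a log2 difference of -0.93, which passed. The origins overlapped, since both libraries of TSC alone with BMP4 exceeded replicate 2 of the untreated assembled iPSC part, at 0.776 FPKM.

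Serpinf1 (pigment epithelium-derived factor, which inhibits no protease) was lower in TSC origin over the groups by a log2 difference of -1.25 ± 0.26 (limma adjusted p = 0.00156). It stood at 0.390 to 3.96 FPKM in iPSC origin and at 0 to 0.789 FPKM in TSC origin. Serpinf1 reached 1 FPKM only in libraries of iPSC origin, so its lineage differences are no independent test. The 2 libraries of untreated iPSC alone, at 3.96 and 0.390 FPKM, lay far apart. The lone cultures differed by -1.18 ± 0.52 (limma adjusted p = 0.0929), which did not pass, and by -2.10 (limma adjusted p = 0.00922) without replicate 2 of iPSC alone.

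Serpinh1, the chaperone that holds collagen triple helices in the endoplasmic reticulum, did not pass in any of the 15 comparisons. Its levels ran from 4.68 to 10.98 FPKM in 15 libraries and stood at 23.6 FPKM in replicate 2 of untreated TSC alone. The lineage difference over the groups was 0.04 ± 0.21 (limma adjusted p = 0.888), and its sign turned without any 1 of 5 libraries. On assembly in TSC it was -1.14 ± 0.42 (limma adjusted p = 0.0765), which became -1.87 (limma adjusted p = 0.00896) without replicate 1 of TSC alone. Leaving out that library also gave calls for the lone cultures (1.37, limma adjusted p = 0.0164) and for BMP4 in TSC alone (-1.37, limma adjusted p = 0.0412), where the 23.6 FPKM of replicate 2 then stood for its group.

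Set against all genes, the members were called as follows. Between lone untreated cultures, 8 members of 18 were higher in TSC and 3 lower, where 36.4% of all genes tested were called (16.2% higher, 20.2% lower). Over the averaged origins 12 were higher and 4 lower, against 48.8% of all genes (24.8% and 24.0%), and the members' median log2 difference was 0.62 against -0.01 for all genes. Of the 16, Serpinb1b, Serpinb9d and Serpinb9f lost their call under 11, 15 and 13 of 21 alternatives. Between the assembled parts 3 were higher and 2 lower, against 16.9% (11.1% and 5.89%), and 2 in all were called without replicate 2 of the untreated assembled iPSC part or replicate 1 of the untreated assembled TSC part. Since the filter keeps a low member only where some group is high, these counts describe the 18 that passed and not the family.

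On assembly without BMP4, 1 member rose and 6 fell in TSC, where 19.2% of all genes were called (9.01% higher, 10.2% lower) and 4 members in all without replicate 1 of the untreated assembled TSC part, and 0 of 18 passed in iPSC, where 11.8% were called and 3 members had an unadjusted p under 0.05. Averaged over BMP4, 2 rose and 5 fell in TSC (17.6% of all genes called, 6.97% higher and 10.6% lower) and 1 rose in iPSC (26.6%, 5.95% higher). The difference between the 2 assembly effects passed for 1 member higher in TSC, Serpinb1a, and 3 lower, Serpinb9, Serpinb9b and Serpinb9c, against 4.15% of all genes (2.94% and 1.22%). The Serpinb9b difference of -2.58 ± 0.35 (limma adjusted p = 0.00606) was called under each of the 21 alternatives, while Serpinb1a, Serpinb9 and Serpinb9c lost theirs under 12, 13 and 15 of them. The Serpinb9b effect rests on the untreated libraries of TSC. With BMP4 Serpinb9b stood at 2.65 and 3.59 FPKM in TSC alone and at 3.48 and 3.59 FPKM in the assembled TSC part. The untreated assembly comparison in iPSC had a median of -0.19 over all genes, which quantile normalization moved to 0, and the members' differences there are relative to an unscaled table.

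With BMP4, 2 members rose and 4 fell in TSC alone, where 12.1% of all genes were called (6.39% higher, 5.74% lower). Without replicate 1 of TSC alone, untreated or with BMP4, 3 members in all were called. None of the 18 passed in iPSC alone (0.0597% of all genes called, 3 members at an unadjusted p under 0.05), in the assembled iPSC part (0.00746%, 0 members) or in the assembled TSC part (0.500%, 3 members) with limma. Averaged over culture forms, 0 passed in iPSC (0.186%, 1 member at an unadjusted p under 0.05), and 1 rose and 2 fell in TSC (7.03%, of which 3.63% higher and 3.41% lower). The 2 that fell were Serpinb9b and Serpinb9c and the 1 that rose was Serpinb1a, by 1.60 ± 0.32 (limma adjusted p = 0.0118). The averaged fall of Serpinb9b came from TSC alone, at -3.78, since its difference in the assembled TSC part was 0.97, which did not pass. The Serpinb1a call was lost without the pair of mixed-marker libraries (limma adjusted p = 0.0545), the Serpinb9b call with a pseudocount of 0.1 (limma adjusted p = 0.131), and the Serpinb9c call under 4 of 21 alternatives, among them the absence of replicate 1 of TSC alone with BMP4, replicate 2 of the untreated assembled TSC part or replicate 1 of that part with BMP4. The BMP4 effect differed between lineages for 1 member, Serpinb9c (2.69% of all genes, 1.42% lower).

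**Figure D5:**
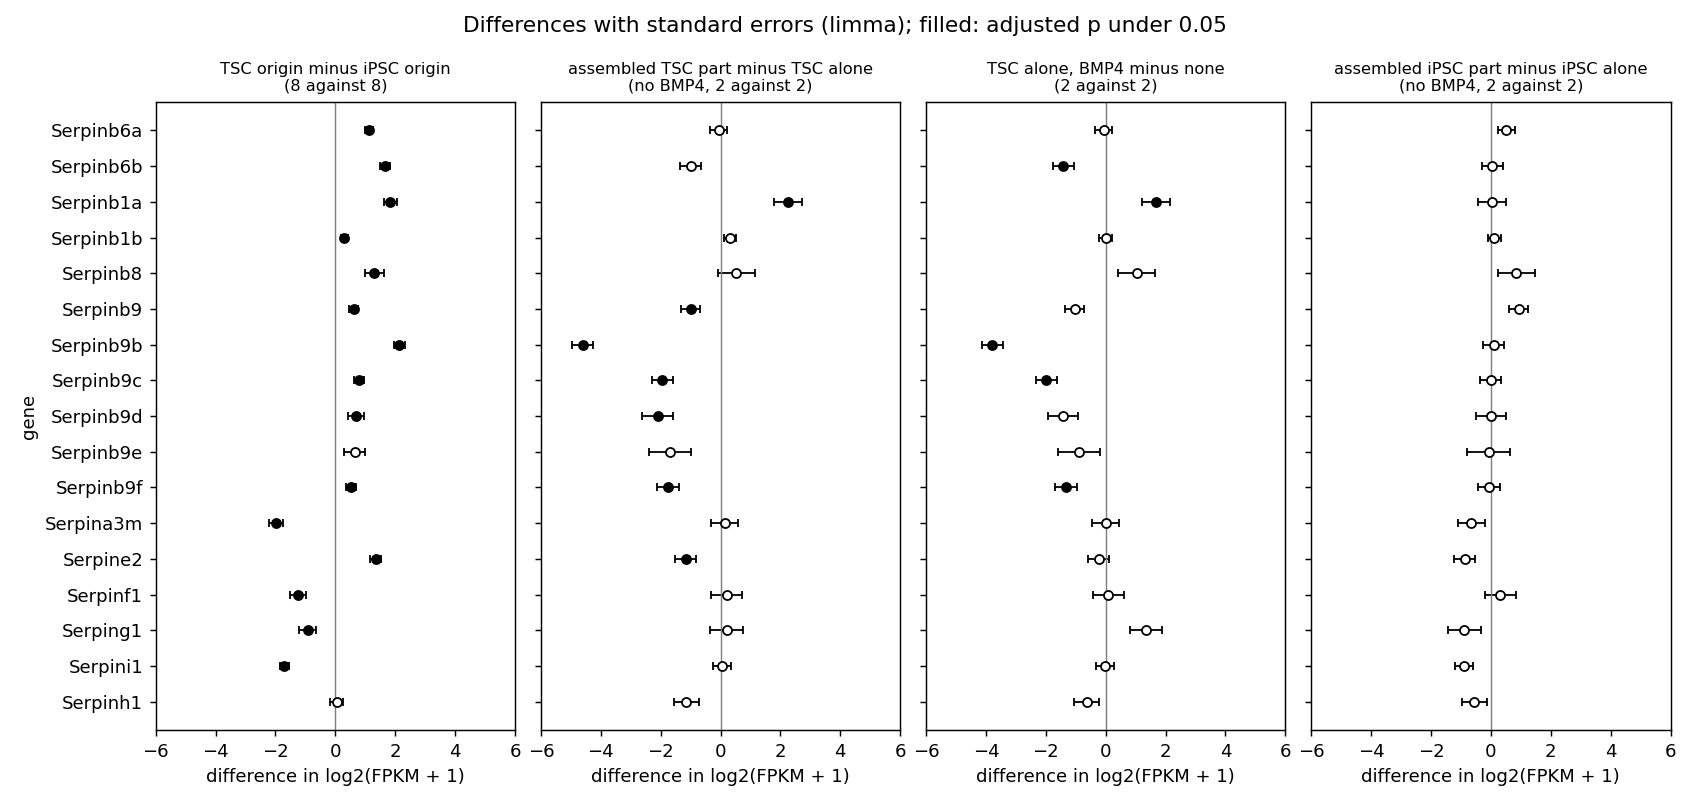
Differences in log2(FPKM + 1) with standard errors for 17 of the 18 Serpin genes tested in 4 comparisons, filled where the limma adjusted p is under 0.05. Serpinb9b is the point farthest from 0 in both middle panels, at -4.60 and -3.78, and no point is filled in the panel of the iPSC part.

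The proteases and receptors that serpins act on were described from a list of 58 genes, of which 56 are in the table and 25 were tested. Over the averaged origins 9 were higher in TSC and 7 lower, where 24.8% of all genes were called higher and 24.0% lower, with a median of 0.34 against -0.01 for all genes. Htra1, a secreted serine protease, averaged 144 ± 67.2 FPKM in TSC origin and 8.30 ± 8.90 FPKM in iPSC origin (SD, n = 8 libraries each, log2 difference 4.18 ± 0.36, limma adjusted p = 1.68e-06). Cathepsin B (Ctsb) was higher without overlap, at 58.3 ± 29.2 against 21.4 ± 2.07 FPKM (1.30 ± 0.12, limma adjusted p = 3.98e-06). Hepsin (Hpn), a membrane-bound serine protease, was lower in TSC origin by -1.59 ± 0.31 (limma adjusted p = 0.000904).

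With assembly, averaged over BMP4, 2 of the 25 rose and 5 fell in TSC, where 17.6% of all genes were called, and 1 rose and 2 fell in iPSC, where 26.6% were. St14 (matriptase, a membrane serine protease) fell in both: from 34.3 ± 14.0 to 7.57 ± 5.49 FPKM in TSC (-2.23 ± 0.34, limma adjusted p = 0.00187) and from 19.8 ± 4.89 to 6.61 ± 3.61 FPKM in iPSC (-1.54 ± 0.34, limma adjusted p = 0.00674), n = 4 libraries a side. The lysosomal protease Ctsz also fell in both, by -1.23 ± 0.23 (limma adjusted p = 0.005) and -1.26 ± 0.23 (limma adjusted p = 0.00246). Plaur, the urokinase receptor, rose in TSC from 60.5 ± 40.7 to 138 ± 21.0 FPKM (1.89 ± 0.59, limma adjusted p = 0.0455).

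Of 37 listed partners of Serpinh1 in collagen making, 34 are in the table and 25 were tested. Over the averaged origins 9 were higher in TSC and 8 lower, against 24.8% and 24.0% of all genes, with a median of -0.03 against -0.01. Bmp1, which trims procollagen ends, was higher in TSC origin (2.42 ± 0.26, limma adjusted p = 1.12e-05) and rose with assembly in TSC (2.30 ± 0.37, limma adjusted p = 0.00253). In the iPSC part 6 of the 25 fell with assembly, averaged over BMP4, and 0 rose. Of all genes 20.6% were called lower there and 5.95% higher, so the share is near the background, and the median was -0.24 against -0.19 for all genes. Those that fell included the prolyl hydroxylase subunits P4ha2 (-1.17 ± 0.30, limma adjusted p = 0.0127) and P4ha1 (-0.93 ± 0.30, limma adjusted p = 0.0377) and the lysyl hydroxylase Plod2 (-0.97 ± 0.24, limma adjusted p = 0.0104). With BMP4 in TSC alone 6 of the 25 rose and 0 fell, against 6.39% and 5.74% of all genes.

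Of 40 protease inhibitors outside the family, 38 are in the table and 19 were tested. Over the averaged origins 9 were higher in TSC and 3 lower, against 24.8% and 24.0% of all genes, with a median of 0.29 against -0.01. Slpi, a secreted elastase inhibitor, was lower in TSC origin without overlap, at 0.754 ± 1.37 against 53.6 ± 69.2 FPKM (-4.24 ± 0.47, limma adjusted p = 1.23e-05). Calpastatin (Cast), the calpain inhibitor, was higher without overlap, at 23.7 ± 12.9 against 8.82 ± 2.30 FPKM (1.22 ± 0.16, limma adjusted p = 4.13e-05). Cystatin B (Cstb), an intracellular cathepsin inhibitor, rose with assembly in iPSC from 376 ± 65.6 to 806 ± 150 FPKM (1.09 ± 0.20, limma adjusted p = 0.00232). With assembly in TSC, averaged over BMP4, 1 rose and 5 fell, where 6.97% of all genes were called higher and 10.6% lower. Among those that fell was Spint1, the Kunitz inhibitor that restrains matriptase, from 67.7 ± 27.0 to 27.9 ± 14.8 FPKM (-1.34 ± 0.25, limma adjusted p = 0.00533).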

How the data were processed

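The deposited table holds FPKM, fragments scaled to transcript length and mapped total, computed by the authors for 31663 symbols in 16 libraries. CASAVA, TopHat2 and the builds mm9 and hg19 appear in it per the submitters' processing notes, without roles. Which program, annotation and filters gave the FPKM, and how reads shared by paralogs were split, is not stated there. Depth is unknown, and no counting interval is given. A symbol shared with another entry (12 entries) was treated as separate.

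The filter of 1 FPKM in at least 2 libraries left 13406 genes. Their log2(FPKM + 1) values, unscaled, went into limma 3.58.1 under R 4.3.3 (lmFit, contrasts.fit, eBayes with trend) as 8 group means, with 8 residual degrees of freedom. Two-sided p-values were corrected by Benjamini-Hochberg over these genes in each of 15 comparisons. Averages over origin, culture form or BMP4 weight groups equally, and differences between effects are interaction terms. The fit was tested on simulated data. The members and gene lists were chosen with earlier results of these data known. Members with a group mean of at least 5 FPKM, or past the threshold in a test, are named, apart from 1 tested member that is counted but not reported here, and up to 4 genes per list and direction. The 21 alternatives changed the pseudocount to 0.1, dropped the filter, used quantile normalization, added a replicate block, left out the mixed-marker pair of libraries, or left out each library. A fit without 1 library has 7 residual degrees of freedom and assumes that a lone library varies like the other groups. Promoter windows came from RefSeq (GRCm38.p6) and shared 50-base stretches from GENCODE transcripts, read with Python 3.11.15 and Biopython 1.88. Figures used matplotlib 3.10.9.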

Additional observations from a re-analysis of the deposited data

Results flagged for a closer look

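The difference between the effect of assembly in TSC and in iPSC, averaged over BMP4, passed for 4 members in limma's interaction test. It was -2.58 for Serpinb9b (limma adjusted p = 0.00606), 2.07 for Serpinb1a (limma adjusted p = 0.0305), -1.37 for Serpinb9 (limma adjusted p = 0.0371) and -1.36 for Serpinb9c (limma adjusted p = 0.0477), in log2(FPKM + 1). For Serpinb9 the averaged assembly effects behind it were 0.95 in iPSC (limma adjusted p = 0.00976) and -0.42 in TSC (limma adjusted p = 0.229). Serpinb9b averaged 3.12 FPKM in TSC alone with BMP4 and 3.54 FPKM in the assembled TSC part with BMP4. Its difference thus rests on the untreated libraries of TSC. Serpinb9c and Serpinb1a passed the filter through groups of TSC where they were high, so their calls are no independent test.

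Over 21 alternatives the adjusted p ran from 0.00316 to 0.0254 for Serpinb9b, 0.00813 to 0.0786 for Serpinb1a, 0.0194 to 0.0994 for Serpinb9 and 0.0225 to 0.152 for Serpinb9c. Serpinb1a lost its call without any 1 library of iPSC alone (with or without BMP4) or of the untreated assembled iPSC or TSC part, without replicate 2 of TSC alone with BMP4 or replicate 1 of the BMP4-treated assembled iPSC part. Serpinb9 lost its call without 12 single libraries, and kept it without replicate 2 of iPSC alone with BMP4, replicate 2 of untreated TSC alone, replicate 1 of the untreated assembled iPSC part or replicate 2 of that part with BMP4. With no filter Serpinb1a, Serpinb9 and Serpinb9c lost their calls, and with a pseudocount of 0.1 Serpinb1a and Serpinb9c did. Serpinb9c lost its call without 13 single libraries, and kept it without replicate 1 of untreated TSC alone or either replicate of the BMP4-treated assembled iPSC part.

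The effect of BMP4 differed between TSC and iPSC, averaged over culture forms, for Serpinb9c, by -1.44 (limma adjusted p = 0.0456). Its adjusted p ran from 0.0126 to 0.142 over the 21 alternatives, and the call was lost under 13 of them. Among these were a pseudocount of 0.1, no filter, the absence of the mixed-marker pair, and the absence of any 1 library of iPSC alone with or without BMP4, either replicate of the untreated assembled iPSC part, replicate 2 of untreated TSC alone, replicate 1 of TSC alone with BMP4, replicate 2 of the untreated assembled TSC part and replicate 1 of that part with BMP4.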

How the results depend on the processing

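The number of Serpin members called moved by more than 1.5 times in 11 comparisons, in 8 of them under an alternative other than leaving out 1 library. With a pseudocount of 0.1 it went from 0 to 1 on assembly in untreated iPSC, 1 to 2 on assembly in iPSC over both BMP4 conditions, 4 to 2 for the difference between the assembly effects, 6 to 3 for BMP4 in TSC alone and 1 to 0 for the difference between the BMP4 effects. Quantile normalization gave 1 and 2 in the first 2 of these. Without the filter the counts were 2 for the difference between the assembly effects, 1 for BMP4 in the assembled TSC part (0 otherwise) and 5 for BMP4 in TSC over both culture forms (3 otherwise). Without the pair of mixed-marker libraries they were 2 for assembly in iPSC and 1 for BMP4 in iPSC over both culture forms (0 otherwise). The cause was not tested.

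Leaving out 1 library gave 10 to 11 members between the lone cultures, 2 to 6 between the assembled parts, 4 to 7 on assembly in TSC, 0 to 3 on assembly in iPSC over BMP4, 1 to 6 for the difference between the assembly effects, 0 to 1 for BMP4 in iPSC alone, 3 to 8 for BMP4 in TSC alone, 0 to 1 for BMP4 in the assembled TSC part, 0 to 1 for BMP4 in iPSC over culture forms, 2 to 7 for BMP4 in TSC over culture forms and 0 to 2 for the difference between the BMP4 effects. Among 108 values of single members recomputed, leaving out 1 library turned the sign of 7, none of them called in the full set or after turning: Serpina3m (-0.73 to 0.15) and Serping1 (-0.93 to 0.21) on assembly in iPSC over BMP4, Serpinb9e (-2.41 to 0.63) and Serpinh1 (-1.37 to 0.10) with BMP4 in TSC alone, Serpinb9e with BMP4 in TSC over culture forms (-1.12 to 0.40, and 0.04 without replicate 1 of TSC alone with BMP4) Serpinh1 between lone cultures (-0.10 to 1.37) and Serpinh1 over the averaged origins (-0.14 to 0.22). The last was -0.14 without replicate 2 of untreated TSC alone, -0.04 without replicate 2 of TSC alone with BMP4, and -0.02 without replicate 2 of untreated iPSC alone, replicate 2 of the BMP4-treated assembled iPSC part or replicate 1 of the untreated assembled TSC part. The mixed-marker pair left out together gave 0.21 for Serping1 as well.

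Replicate numbers did not pair the libraries: over 28 pairs of groups the correlation of deviations ran from -0.185 to 0.119, and 2 were above 0.1. With the replicate number as a block the count on assembly in iPSC over BMP4 went from 1 to 2, that of BMP4 over all genes in iPSC from 25 to 14, Serpinb6a passed between the assembled parts (limma adjusted p = 0.044) and Serpinb9 on assembly in TSC did not (limma adjusted p = 0.0566).

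Over all genes, calls without that pair went from 2575 to 1398 on assembly in untreated TSC, 2357 to 1420 over BMP4, 943 to 527 for BMP4 in TSC, 25 to 137 for BMP4 in iPSC, 8 to 18 in iPSC alone, 1 to 28 in the assembled iPSC part and 67 to 27 in the assembled TSC part. A pseudocount of 0.1 gave 3, 2 and 28 in the last 3, and no filter gave 79 in iPSC alone, 11 in the assembled iPSC part and 79 over both. Quantile normalization moved the split of higher and lower calls from 279 and 1306 to 561 and 764 on assembly in untreated iPSC, from 797 and 2765 to 1530 and 1720 over BMP4, from 394 and 163 to 247 and 275 for the difference between the assembly effects, from 1482 and 789 to 1260 and 1144 between the assembled parts, and from 1 and 0 to 2 and 1 for BMP4 in the assembled iPSC part. Levels under about 1 FPKM limit the low members, since depth is unknown.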
